A study of Danio rerio with 16 samples.

Results

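The genes described here are members of the Wnt signalling pathway that an Affymetrix zebrafish array measures, 44 of the 8793 genes that its probe sets name. They were taken by symbol: the wnt ligands, the Frizzled (fzd) receptors, the secreted inhibitors of the dkk and sfrp families, the dishevelled (dvl), axin, gsk3 and casein kinase 1 (csnk1) genes, the beta-catenin (ctnnb) genes, lef1 and the tcf7 genes, and the sp5 genes. The ligand gene wnt11 was left out. Lrp5 and lrp6, which encode Wnt co-receptors, were part of the choice and no probe set carried either symbol alone. A further 2 probe sets were not used because each lists several symbols, so that its signal belongs to no single gene; wnt8a is among those symbols. Where several probe sets name a gene, the brightest on average across the 16 arrays stands for it.

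The samples were whole wild-type embryos of an AB/WIK hybrid incross, freed of their chorions and collected at 11 hours post fertilization (hpf), the early somite stage. The 4 groups, with 4 samples each, received 2% dimethyl sulfoxide (DMSO) as solvent from 5.25 hpf, all-trans retinoic acid (RA) at 0.33 µM from 6.5 hpf, or AGN193109, an antagonist of the RA receptors, at 10 µM or 1 µM from 5.25 hpf. The sample titles spell the antagonist AGN193019. RA embryos were thus exposed for 4.5 hours and all others for 5.75 hours, and the effect of RA and of the shorter exposure cannot be told apart. Compounds came from stocks in DMSO. A DMSO percentage was recorded here for the solvent group only, so whether the treated groups had the same solvent level is not known. The labels do not say how many embryos made up a sample.

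Wnt ligands are secreted proteins that bind Frizzled receptors at the cell surface. In the canonical branch, receptor and Dishevelled stop a complex of Axin, glycogen synthase kinase 3 and casein kinase 1 from marking beta-catenin for destruction, and beta-catenin then acts with Tcf and Lef proteins on target genes. During zebrafish gastrulation this branch gives the neural plate its posterior character and maintains tailbud progenitors, and another branch without beta-catenin guides the cell movements that lengthen the body axis.

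Values are log2 of the deposited intensity, except the array medians and the sums over regional markers. Those sums add linear intensities of several probe sets, so the brightest probe sets weigh most and a sum does not measure the size of a region. Apart from the sums, signals of different probe sets were not set against each other. The test covered the 11843 probe sets with a log2 intensity above 4 on at least 4 of the 16 arrays, among them those of 38 of the 44 Wnt genes. Group means were compared in limma over all 16 arrays, and a gene was called at an adjusted p under 0.05, with Benjamini-Hochberg adjustment over all tested probe sets. Differences are given in log2 units with the standard error (SE) of that fit. Array medians ran from an intensity of 72.8 to 78.3 in the deposited values. These values were already processed, so the medians cannot show whether an array stood apart in brightness before that. The treatment was checked in 2 known RA-responsive genes. Dhrs3a, which encodes a retinaldehyde reductase, rose by 3.91 ± 0.17 under RA (adjusted p = 8.58e-11). It was at least 7.20-fold lower under either dose of the antagonist (adjusted p = 6.34e-09 at 10 µM and 1.46e-09 at 1 µM). Cyp26a1 rose by 3.47 under RA (adjusted p = 8.72e-08) and was called at neither dose of the antagonist. Its difference from DMSO was -0.97 at 10 µM (adjusted p = 0.314). At 1 µM its mean was 10.06, against 10.50 under DMSO.

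The comparison of RA with DMSO asked which Wnt genes respond to excess RA. Of 8 Frizzled receptor genes 4 were lower, with fzd8b, fzd8a and fzd10 at between 2.32-fold and 3.20-fold less and fzd9b at 1.66-fold less. The zinc finger gene sp5a, a target of canonical Wnt signalling in zebrafish, was 3.91-fold lower, and the Wnt feedback gene axin2 and the repressor gene tcf7l1b fell by less. The ligand gene wnt4 and the inhibitor gene dkk2 rose from below a log2 intensity of 4. Of the 38 tested genes 2 were called higher and 7 lower, together 23.7%, against 5.75% of all tested probe sets (3.18% higher and 2.57% lower). At an unadjusted p under 0.05 there were 11 members, and 13.2% of all tested probe sets. The genes dkk2 and wnt4 entered the test only through their RA arrays and could hardly have passed it without differing; of the other 36 tested genes 7 were called, all of them lower (19.4%, against 2.57% of all tested probe sets called lower). The RA and DMSO arrays did not overlap for 11 of the 38 genes, and for 10.1% of all tested probe sets. The median difference of the 38 genes was -0.05, against 0.01 over all tested probe sets, with 16 above 0 and 22 below. The median size of the difference, whatever its sign, was 0.19 for the members and 0.14 over all tested probe sets.

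**Figure D1:**
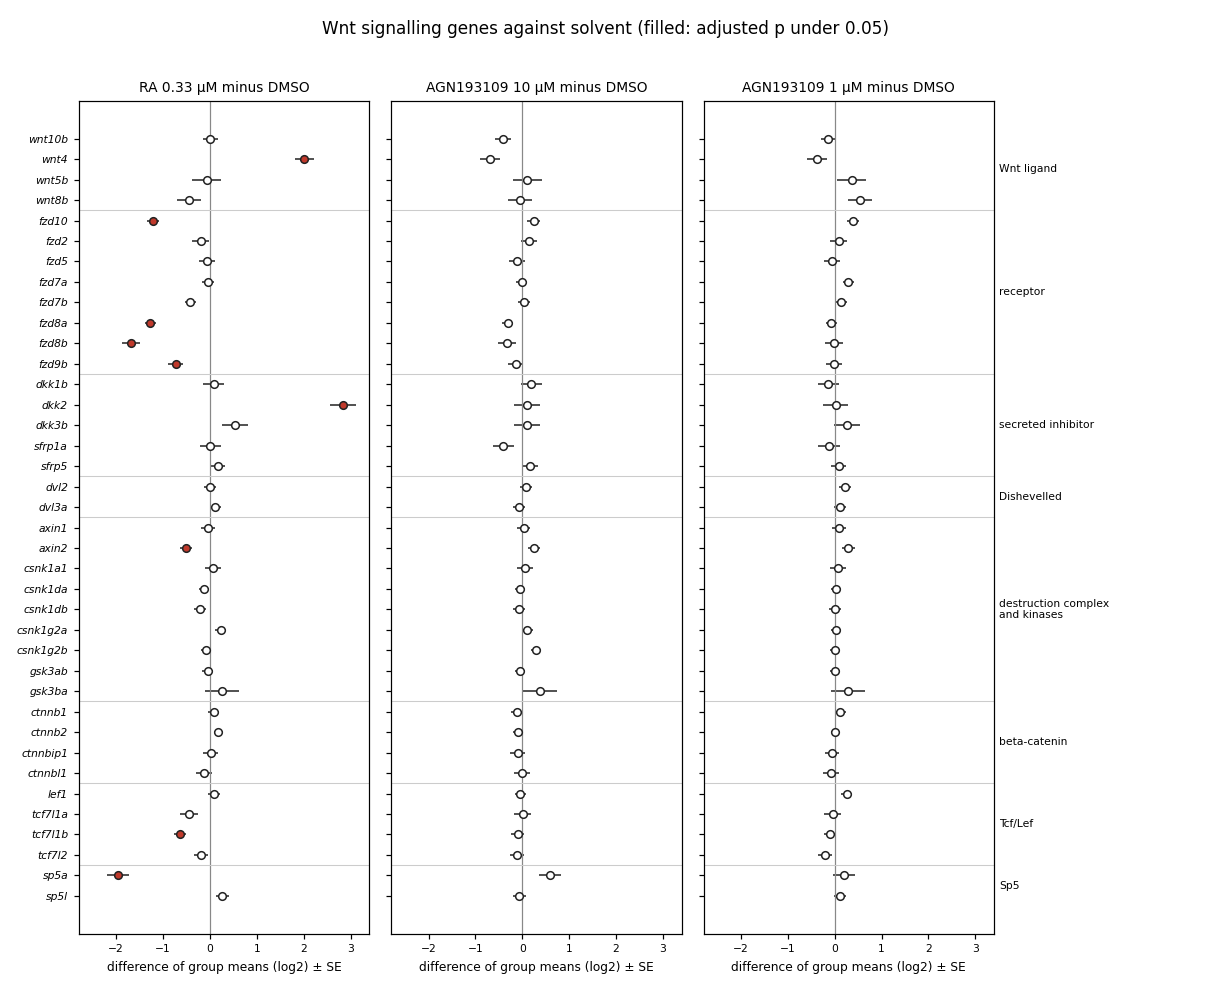
Difference of group means from DMSO (x axis, log2 units, bars ± SE of the fit) for the 38 tested Wnt genes, ordered by role, in the 3 treated groups with 4 arrays each. Filled points mark an adjusted p under 0.05: 9 genes under RA and 0 under either dose of the antagonist; wnt4 and dkk2 lay below log2 4 on all DMSO and antagonist arrays.

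The plot of differences by role shows that 4 of the 9 calls under RA were receptors and 5 were spread over the ligands, the inhibitors, the destruction complex, the Tcf and Lef genes and the Sp5 genes. The Dishevelled and the beta-catenin genes had 0 calls by limma, and 0 at an unadjusted p under 0.05. The roles are described in turn, from the ligands to the target genes.

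Of 9 ligand genes, wnt4 was called and the others were not. Wnt4 is a ligand of the branch without beta-catenin in zebrafish gastrulation. Its DMSO arrays read 2.97, 2.84, 3.31 and 2.59 in replicates 1 to 4, and its RA arrays read 5.19, 4.38, 5.25 and 4.95. The antagonist arrays read 2.70, 1.88, 2.38 and 1.99 at 10 µM and 2.44, 2.49, 2.67 and 2.62 at 1 µM. Each RA array lay above log2 4 and each of the other 12 arrays below it. The gene was therefore at least 1.92-fold higher under RA than under DMSO, with measured means of 4.94 and 2.93. The adjusted p of 2.86e-06 from limma belongs to those measured means and not to the bound. Since the gene was tested only through its RA arrays, that value adds little to the readings. Since DMSO and antagonist arrays all lay below log2 4, no fold is given between them.

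The other ligand genes gave no call. The ligand gene wnt5b, which drives convergence and extension movements, read 7.35, 7.84, 6.35 and 7.26 under DMSO and 7.59, 7.12, 7.49 and 6.33 under RA, a difference of -0.07 ± 0.31 (adjusted p = 0.961). One array in each of these groups was lower than the others by more than the groups differed. For wnt10b the difference was 0.01 ± 0.16 (adjusted p = 0.997), and for wnt8b, a ligand gene of the forebrain and hindbrain, it was -0.45 ± 0.25 (adjusted p = 0.523) on the measured values, with log2 4 exceeded on 6 of 16 arrays and on none of the 4 RA arrays. The remaining 5 ligand genes, wnt1, wnt10a, wnt2, wnt2ba and wnt4b, did not exceed log2 4 on any array and were not tested. Wnt1 read between 2.72 and 3.32 on the 16 arrays.

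The 8 Frizzled genes encode membrane receptors of Wnt ligands, and 4 of them fell under RA. The mean was lower under RA than under DMSO for all 8, but for fzd7a, fzd2 and fzd5 the arrays of the groups overlapped and no call was made. Fzd8a and fzd8b are closely related receptors of the anterior neural plate. For fzd8a, the DMSO arrays read 9.09, 9.46, 9.23 and 9.09 and the RA arrays 7.92, 8.06, 7.86 and 7.94. The groups were far apart compared with their spread, and the gene fell by 1.27 ± 0.11 (adjusted p = 3.75e-07). Fzd8b read 9.41, 9.89, 9.61 and 9.62 under DMSO and 7.43, 8.30, 7.72 and 8.36 under RA, a fall of 1.68 ± 0.19 (adjusted p = 8.16e-06). Its RA arrays were more scattered than those of fzd8a (SD of 0.45 against 0.09, n = 4), with replicates 1 and 3 the lowest, and none reached a DMSO array.

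Fzd10 read 9.93, 10.20, 9.94 and 9.95 under DMSO and 8.99, 8.70, 8.79 and 8.71 under RA, and it fell by 1.21 ± 0.14 (adjusted p = 7.28e-06). Fzd9b read 7.61, 8.08, 7.86 and 7.82 under DMSO and 6.99, 7.07, 7.37 and 7.03 under RA, and it fell by 0.73 ± 0.16 (adjusted p = 0.00902). In both genes every RA array was below every DMSO array, by the smallest margin for RA replicate 3 of fzd9b. The fzd7 paralogues, receptors that act in gastrulation movements, differed by less. Fzd7b had -0.42 ± 0.13 (adjusted p = 0.0723), with no overlap between the groups, and fzd7a had -0.04 ± 0.12 (adjusted p = 0.942; 95% interval from -0.30 to 0.22). The interval for fzd7a leaves out a change of the size seen in fzd8a, fzd8b or fzd10. Fzd2 (-0.20 ± 0.17, adjusted p = 0.733) and fzd5 (-0.06 ± 0.17, adjusted p = 0.942) were not called.

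**Figure D2:**
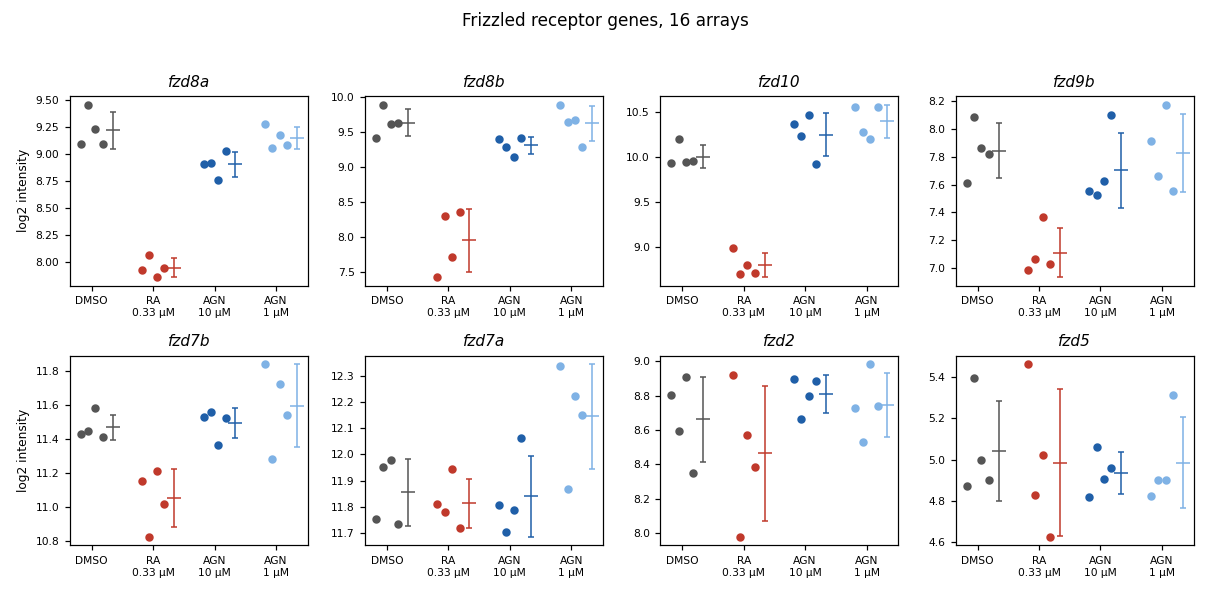
Log2 intensity (y axis) of the 8 Frizzled genes on each of the 16 arrays, by group (x axis; AGN is AGN193109), with points in replicate order and bars for mean ± SD of 4 arrays; each panel has its own y range. The RA arrays of fzd8a, fzd8b, fzd10, fzd9b and fzd7b all lie below the DMSO arrays, and those of fzd7a, fzd2 and fzd5 overlap them.

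A second probe set was present for 4 of the 8 Frizzled genes and gave like values. Under RA it gave -1.21 ± 0.11 for fzd8a (adjusted p = 8.07e-07) and -1.24 ± 0.21 for fzd10 (adjusted p = 0.000617). It gave -0.80 ± 0.19 for fzd9b (adjusted p = 0.0116) and -0.53 ± 0.17 for fzd7b (adjusted p = 0.0993). The second probe sets therefore led to the same calls. Probe sets of 1 gene share their RNA and are not replicates. The second probe sets of fzd8a and fzd10 are of the kind that Affymetrix marks as matching more than a single transcript, so related genes may add to their signal.

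Fewer cells of a type and less RNA per cell cannot be told apart in whole embryos. Many regional markers also differed under RA, and not all in the direction of the receptors. Limma called 5.75% of all tested probe sets in this comparison, 3.18% higher and 2.57% lower. All 7 tested markers of the forebrain and eye field fell, among them rx3 (-2.76 ± 0.31, adjusted p = 8.06e-06) and otx2b (-2.65 ± 0.33, adjusted p = 2.67e-05). The summed intensity of these 7 genes ran from 2178 to 3749 on DMSO arrays and from 237.8 to 938.1 on RA arrays, and emx3 was at or below log2 4 on all RA arrays. Of 6 tested markers of the midbrain-hindbrain boundary 4 fell and fgf8a rose, while pax8 was not called (means of 5.81 under DMSO and 6.34 under RA). The sum over 7 genes ran from 1392 to 1602 under DMSO and from 947.7 to 1155 under RA. En2a and en2b were at or below log2 4 on all RA arrays, and pax5 was so on all arrays of every group. Of 9 tailbud and presomitic markers 4 fell (sums of 10754 to 14636 and 8749 to 9751). The others, among them cdx4 and tbxta, were not called. Of 4 prechordal plate and notochord markers 3 fell (1371 to 1796 and 703.7 to 794.8). The part of these regions in the Wnt gene differences was not tested.

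The other lists were mixed or gave few calls, with the same shares of all tested probe sets called. Of 3 hindbrain markers hoxb1a rose (means of 8.63 under DMSO and 11.98 under RA) and egr2b and hoxa2b fell. The sums were 719.7 to 806.5 under DMSO and 3834 to 4270 under RA, so the higher sum came from hoxb1a alone. Egr2b was at or below log2 4 on all RA arrays. Of 4 neural crest markers 2 rose and 1 fell (1768 to 2202 and 2010 to 2569), and of 2 muscle markers myf5 fell (758.8 to 872.7 and 372.5 to 649.0). Of 5 epidermal markers limma called 0, and 1 had an unadjusted p under 0.05 (30877 to 33391 and 31667 to 39679).

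Of 5 tested genes of secreted inhibitors, dkk2 rose. The Dickkopf proteins Dkk1 and Dkk2 bind the Lrp5 and Lrp6 co-receptors. The dkk2 arrays read 3.43, 3.33, 3.48 and 3.39 under DMSO and 5.44, 6.61, 5.67 and 7.27 under RA. At 10 µM and 1 µM of the antagonist they ran from 3.42 to 3.61 and from 3.34 to 3.57. Dkk2 thus exceeded log2 4 only on the RA arrays and, like wnt4, was tested only through them. It was at least 4.74-fold above DMSO there (adjusted p = 1.25e-06 in limma, for the measured values). It varied more between RA replicates (SD of 0.85, n = 4) than any other member did in that group. Dkk1b, an inhibitor that protects head development from Wnt signals, read 7.41, 7.5, 7.59 and 7.60 under DMSO and 7.05, 8.20, 7.48 and 7.70 under RA. Its mean was nearly the same (0.08 ± 0.23, adjusted p = 0.939), but the RA arrays lay on both sides of the DMSO arrays, and the 95% interval ran from -0.40 to 0.56. Sfrp1a (0.01 ± 0.23), sfrp5 (0.17 ± 0.16) and dkk3b (0.54 ± 0.28) had adjusted p-values of 0.997, 0.761 and 0.449.

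Inside the cell, transcripts of the signal transducers gave 1 call. Axin2, a scaffold of the destruction complex that canonical Wnt signalling itself induces, read 8.95, 9.15, 9.15 and 8.86 under DMSO and 8.83, 8.26, 8.58 and 8.44 under RA. It fell by 0.51 ± 0.13 (adjusted p = 0.0258), and the highest RA array lay just below the lowest DMSO array. The call ended when any of 5 arrays was left out, namely replicates 2 and 3 of DMSO and 2, 3 and 4 of RA, with adjusted p-values between 0.0526 and 0.0910. It also ended when the fit held RA and DMSO alone (0.0940), and when replicate numbers were a block in that fit (0.111). Its constitutive relative axin1 had -0.04 ± 0.14 (adjusted p = 0.947).

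The other 8 tested members of the destruction complex and kinase class had adjusted p-values of 0.429 or more, among them csnk1db, whose RA arrays all lay below the DMSO arrays (-0.21 ± 0.13, adjusted p = 0.598). Gsk3ab had -0.05 ± 0.11 (adjusted p = 0.923) and csnk1a1, a kinase that primes beta-catenin, 0.06 ± 0.17 (adjusted p = 0.935). Csnk1a1 had DMSO arrays within 11.23 to 11.31, while RA replicates 1 and 3 read 11.77 and 11.62 and replicates 2 and 4 read 10.93 and 10.97. Csnk1e did not pass the filter, with 1 array above log2 4. Dishevelled genes dvl2 (-0.0013 ± 0.13) and dvl3a (0.12 ± 0.12) had adjusted p-values of 0.999 and 0.782. For the beta-catenin genes ctnnb1 and ctnnb2 the differences were 0.09 ± 0.12 (adjusted p = 0.844; 95% interval -0.16 to 0.33) and 0.18 ± 0.10 (adjusted p = 0.496; -0.03 to 0.39). Neither ctnnbip1, which encodes an inhibitor of beta-catenin binding to Tcf, nor ctnnbl1, which shares the name but belongs to splicing complexes, was called.

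Of 4 Tcf and Lef genes, 1 fell. The tcf7l1 genes encode repressors of Wnt targets that are needed for the zebrafish head. Tcf7l1b read 9.49, 9.34, 9.37 and 9.60 under DMSO and 8.65, 9.07, 8.65 and 8.88 under RA, and it fell by 0.64 ± 0.13 (adjusted p = 0.00497). Its paralogue tcf7l1a had a value in the same direction (-0.44 ± 0.19, adjusted p = 0.286) with overlapping groups. Lef1, a mediator and target of canonical signalling, read 8.43, 8.59, 8.56 and 8.42 under DMSO and 8.39, 8.63, 8.69 and 8.64 under RA (0.09 ± 0.12, adjusted p = 0.842), and tcf7l2 had -0.20 ± 0.15 (adjusted p = 0.681).

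Of the sp5 paralogues, both Wnt target genes in zebrafish, only sp5a was called under RA. Sp5a read 9.39, 9.19, 9.04 and 9.62 under DMSO and 6.47, 7.81, 7.33 and 7.76 under RA, and it fell by 1.97 ± 0.24 (adjusted p = 1.82e-05). RA replicate 1 was the lowest, and the highest RA array was still more than 1 log2 unit below the lowest DMSO array. Sp5l read 10.79, 10.51, 10.60 and 10.90 under DMSO and 10.79, 10.80, 11.09 and 11.19 under RA, which gave 0.27 ± 0.13 (adjusted p = 0.434; 95% interval from -0.02 to 0.55). The arrays of sp5l overlapped, and its interval leaves out a fall of the size seen in sp5a. The difference between the paralogues' changes was not tested. Among the canonical target genes of the class, sp5a and axin2 therefore fell while lef1 and sp5l were not called.

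**Figure D3:**
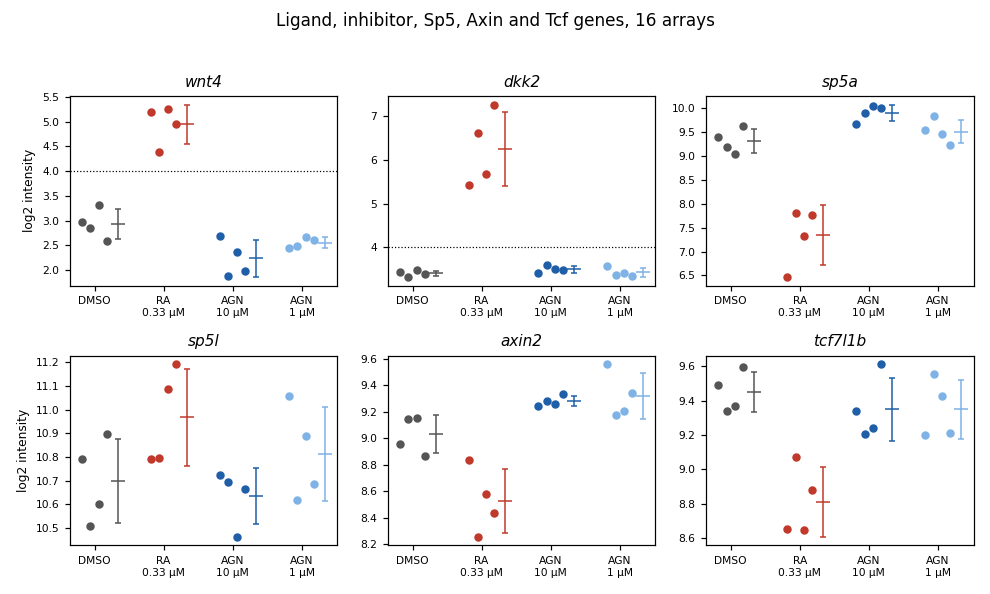
Log2 intensity (y axis) on each of the 16 arrays, by group (x axis; AGN is AGN193109), for 6 Wnt genes outside the Frizzled family, with points in replicate order and bars for mean ± SD of 4 arrays; each panel has its own y range and the dotted line is log2 4. Under RA, wnt4 and dkk2 rise above the line and sp5a, axin2 and tcf7l1b lie below all DMSO arrays, while sp5l overlaps them.

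To see whether Wnt genes depend on RA receptor activity, each antagonist dose was compared with DMSO. Limma called 0 of the 38 tested genes at 10 µM and 0 at 1 µM, where 0.397% and 0.144% of all tested probe sets were called; 5 members had an unadjusted p under 0.05 at each dose, as did 5.15% and 6.28% of all tested probe sets. Wnt4 was among the 5 members at 10 µM, although all its arrays in both groups lay below log2 4. Leaving out wnt4 and dkk2, which lay below log2 4 in these groups, differences ran from -0.41 to 0.59 at 10 µM and from -0.22 to 0.54 at 1 µM. The 95% intervals together reached from -0.89 to 1.14. The arrays of 10 µM and DMSO did not overlap for 5 of the 38 genes and for 5.45% of all tested probe sets. At 1 µM they did not overlap for 1 of the 38, axin2, and for 2.1% of all tested probe sets. The regional marker lists had 0 limma calls at either dose, with 0 or 1 gene of each list at an unadjusted p under 0.05, except the hindbrain list, where hoxa2b rose and hoxb1a fell at 10 µM and hoxb1a fell at 1 µM.

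Sp5a, lower under RA, read 9.67, 9.89, 10.04 and 10.00 at 10 µM and 9.53, 9.83, 9.45 and 9.23 at 1 µM. Its arrays at 10 µM all lay above the DMSO arrays, with a difference of 0.59 ± 0.24 (adjusted p = 0.795), and at 1 µM they overlapped them (0.20 ± 0.24, adjusted p = 0.865). Axin2 read 9.24, 9.28, 9.26 and 9.33 at 10 µM and 9.56, 9.18, 9.21 and 9.35 at 1 µM. All 8 arrays exceeded the highest DMSO array, and the group means lay above the DMSO mean by 0.25 ± 0.13 (adjusted p = 0.973) and 0.29 ± 0.13 (adjusted p = 0.745). Neither gene was called at either dose, and all treated groups were compared with the same DMSO arrays.

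Fzd8a read 8.91, 8.91, 8.75 and 9.03 at 10 µM, below all DMSO arrays, and 9.28, 9.06, 9.17 and 9.08 at 1 µM. The differences were -0.32 ± 0.11 (adjusted p = 0.674) and -0.07 ± 0.11 (adjusted p = 0.897), in the same direction as under RA and not called. Fzd10 had 0.24 ± 0.14 (adjusted p = 1.00) and 0.39 ± 0.14 (adjusted p = 0.745), in the opposite direction from RA. Wnt10b at 10 µM read 4.70, 4.69, 4.84 and 4.74, below the DMSO arrays of 5.09, 5.05, 5.04 and 5.45 (-0.41 ± 0.16, adjusted p = 0.780). The casein kinase gene csnk1g2b at 10 µM read 8.49, 8.50, 8.61 and 8.50 against 8.18, 8.20, 8.17 and 8.39 (0.29 ± 0.11, adjusted p = 0.718), and its 1 µM arrays overlapped DMSO. At 10 µM the arrays of both genes lay outside the range of the DMSO arrays, and neither gene was called. The second probe sets of fzd8a and csnk1g2b overlapped DMSO at 10 µM.

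Between the antagonist doses limma called 0 of the 38 genes, with 0.00844% of all tested probe sets called, and 5 had an unadjusted p under 0.05 (8.92% of all tested probe sets). The arrays of the doses did not overlap for 2 of the 38, csnk1g2b and fzd8a, and for 4.96% of all. In the second probe sets of both genes they overlapped. Differences of 10 µM minus 1 µM ran from -0.58 for wnt8b (± 0.25, adjusted p = 0.554), with 3 of its 4 arrays at 10 µM below log2 4, to 0.39 for sp5a (± 0.24, adjusted p = 0.585). Without replicate 4 of 1 µM the wnt8b difference was -0.35. Lef1 (-0.29 ± 0.12), fzd7a (-0.31 ± 0.12) and csnk1g2b (0.29 ± 0.11) each had an adjusted p of 0.554. The 95% intervals ran from -1.12, for wnt8b, to 0.90, so these arrays leave room for a difference of that size between doses in some genes.

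A direct comparison of RA with the antagonist at 10 µM set raised against blocked RA signalling, with the exposure times different as before. Of the 38 genes 2 were higher under RA and 9 lower (28.9%, against 8.85% of all tested probe sets, of which 4.79% were higher and 4.06% lower). The 2 higher genes were again dkk2 and wnt4, tested only through their RA arrays; of the other 36 genes 9 were called, all lower (25.0%). An unadjusted p under 0.05 was found for 15 members and for 17.8% of all, and the arrays did not overlap for 15 members and for 13.8% of all. These values share their RA arrays with the comparison with DMSO, so the values of each are given side by side and not as separate evidence. Wnt4 and dkk2 were at least 1.92-fold and 4.74-fold higher under RA (adjusted p = 5.21e-08 and 1.30e-06 for the measured values). Sp5a differed by -2.56 ± 0.24 (adjusted p = 5.41e-07), axin2 by -0.75 ± 0.13 (adjusted p = 0.000647) and fzd10 by -1.46 ± 0.14 (adjusted p = 5.54e-07). Fzd8a differed by -0.95 ± 0.11 (adjusted p = 8.40e-06) and fzd8b by -1.35 ± 0.19 (adjusted p = 7.48e-05). Fzd9b (-0.59 ± 0.16, adjusted p = 0.0294) and tcf7l1b (-0.54 ± 0.13, adjusted p = 0.0141) were closer to the threshold.

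Fzd7b (-0.44 ± 0.13, adjusted p = 0.0354) and csnk1g2b (-0.37 ± 0.11, adjusted p = 0.0352) were lower as well. The second probe set of csnk1g2b was not called (-0.24 ± 0.17, adjusted p = 0.544), and that of fzd7b was (-0.60 ± 0.17, adjusted p = 0.0363). The csnk1g2b call was kept without RA replicate 4 and ended without any other of the 8 arrays. Without replicate 4 of the antagonist the number of calls fell from 11 to 7, with csnk1g2b, fzd7b, fzd9b and tcf7l1b lost. Without any single array 7 of the 11 remained called, namely wnt4, dkk2, sp5a, axin2, fzd10, fzd8a and fzd8b.

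Other genes of the pathway came from a list of secretion factors, alternative receptors, planar polarity proteins, scaffolds and corepressors, of which 32 of 35 on the array were tested. Under RA 3 rose and 1 fell (12.5%, against 5.75% of all tested probe sets), and their median difference was 0.01. Dact2, which encodes a Dishevelled-binding modulator, read 7.65, 7.64, 7.04 and 7.83 under DMSO and 9.11, 9.06, 9.02 and 9.12 under RA, a rise of 1.54 ± 0.22 (adjusted p = 0.000119). Prickle1b, a planar polarity gene, rose by 0.72 ± 0.17 (adjusted p = 0.0141). Ror2, a receptor gene of the branch without beta-catenin, rose by 0.64 ± 0.17 (adjusted p = 0.0306). Frzb, a secreted Frizzled-related inhibitor gene, fell by 0.52 ± 0.14 (adjusted p = 0.0309). The calls of ror2 and frzb were each lost without 6 of the 8 arrays in turn, which left 2 calls of 4 without DMSO replicate 1 or RA replicate 1 or 4.

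Against the antagonist at 10 µM, RA gave 5 higher and 2 lower genes of these 32 (21.9%, against 8.85%). The planar polarity genes celsr1a (0.93 ± 0.22, adjusted p = 0.00979), prickle1b (0.87 ± 0.17, adjusted p = 0.00197) and prickle2b (0.69 ± 0.19, adjusted p = 0.0325) were higher, as were ror2 (1.12 ± 0.17, adjusted p = 0.000155) and dact2 (2.06 ± 0.22, adjusted p = 2.93e-06). The homeobox gene hhex (-1.41 ± 0.35, adjusted p = 0.0145) and the corepressor gene tle3b (-0.53 ± 0.15, adjusted p = 0.0347) were lower. Of the other planar polarity genes in the list, prickle1a (0.37 ± 0.23, adjusted p = 0.483), vangl2 (0.14 ± 0.49, adjusted p = 0.931) and scrib (-0.02 ± 0.36, adjusted p = 0.988) were not called. The calls of prickle2b and tle3b were each lost without 6 of the 8 arrays in turn, and in a fit of the 2 groups alone (adjusted p = 0.0694 and 0.0714). With the mean of its probe sets tle3b had -0.30 (adjusted p = 0.0784). Without replicate 1 of RA or replicate 4 of the antagonist 4 of these 7 calls were left. In the 3 comparisons among the antagonist doses and DMSO limma called 0 of the 32, where 0.397%, 0.144% and 0.00844% of all tested probe sets were called at 10 µM, at 1 µM and between doses. At an unadjusted p under 0.05 there were 3, 1 and 6 of the 32, and 5.15%, 6.28% and 8.92% of all tested probe sets.

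A second list held 24 tested genes that respond to Wnt signals in the tailbud, mesoderm or neural plate, most of which other signals control as well. Under RA 3 rose and 8 fell (45.8%, against 5.75% of all tested probe sets), with a median of -0.36. Like the Wnt genes and the pathway list, this list was chosen with earlier results of these data known. Its share therefore describes the list and is not a test of it. No expected direction was set for its genes, so the median does not measure a raised or lowered Wnt response. The hindbrain and midbrain boundary gene gbx2 read 8.48, 8.37, 8.80 and 8.18 under DMSO and 4.32, 5.69, 4.89 and 5.49 under RA, a fall of 3.36 ± 0.24 (adjusted p = 3.46e-08). The presomitic mesoderm genes msgn1 (-2.29 ± 0.15, adjusted p = 1.01e-08), tbx16 (-1.25 ± 0.13, adjusted p = 2.53e-06) and tbx16l (-1.04 ± 0.14, adjusted p = 8.05e-05) fell, as did mycb (-1.04 ± 0.14, adjusted p = 6.36e-05) and hesx1 (-2.66 ± 0.31, adjusted p = 1.14e-05). Foxd3 (-0.64 ± 0.10) and irx3a (-0.60 ± 0.12) completed the falls, and znf703 (1.10 ± 0.11, adjusted p = 1.97e-06), irx1b (0.79 ± 0.17) and fgf8a (0.55 ± 0.13) rose. The caudal gene cdx4 (0.01 ± 0.13, adjusted p = 0.995) and the brachyury gene tbxta (-0.15 ± 0.10, adjusted p = 0.638) were not called. Several of these genes are also among the regional markers above, so their falls are not separate from those.

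Under the antagonist the response list gave 1 call, a fall of znf703 at 10 µM (-0.53 ± 0.11, adjusted p = 0.0424). The call was lost without any single array (adjusted p from 0.0620 to 0.211). It made 4.17% of the 24 genes, against 0.397% of all tested probe sets, and at 1 µM 0 were called, against 0.144%. At an unadjusted p under 0.05 there were 2 of the 24 at 10 µM and 4 at 1 µM. Over all tested probe sets the shares were 5.15% and 6.28%. Between RA and the antagonist at 10 µM 2 of the 24 were higher and 9 lower (45.8%, against 8.85%), with gbx2 at -3.63 ± 0.24 (adjusted p = 8.17e-09) and msgn1 at -2.46 ± 0.15 (adjusted p = 2.30e-09).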

How the data were processed

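RNA of 16 whole-embryo samples was hybridised to 1-colour Affymetrix zebrafish arrays, 1 array per sample. The deposited intensity values are linear, 1 per probe set and array, and were made by the authors with GCRMA, per the submitters' processing notes; no version is named there. Depth has no meaning for arrays, and their number limits the precision. Log2 was taken, 115 control probe sets were left out of 15617, and 11843 that exceeded log2 4 on at least 4 arrays were tested in limma 3.58.1 (R 4.3.3), with 4 group means in 1 model (12 residual and 4.45 prior degrees of freedom), two-sided tests and Benjamini-Hochberg adjustment within each of 5 comparisons. The scripts were tested on simulated data. Where every array of the lower group was at or below log2 4, the fold is a bound, with that group set to log2 4. The adjusted p printed beside such a bound is that of the measured values.

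Gene names came from the platform annotation, brought up to date through Entrez identifiers; of the probe sets 10795 carried 1 symbol, 135 several and 4572 none. The titles call the replicates biological, and the series design gives 4 independent samples per treatment. Doses follow the titles in µM, while the treatment protocol writes mM. Deviations of same-numbered RA and DMSO arrays from their group means correlated at 0.134, 0.269, 0.336 and 0.153. Some differently numbered arrays reached like values, with 0.2365 for DMSO 1 and RA 3 and 0.2999 for DMSO 4 and RA 2. Most differently numbered pairs of these groups were below 0, down to -0.4104 for DMSO 4 and RA 3. Whether the numbers pair these groups is therefore open, and the replicate block was used only as an alternative. Other pairs of groups did not have values this high for every number. Over all groups the median was 0.177 for 24 same-numbered pairs (-0.455 to 0.764) and -0.0888 for 72 others (-0.624 to 0.536). The members and lists were chosen with earlier results of these data known. Genes named were those called in any comparison, the 4 lowest adjusted p-values per comparison, the brightest of each role and a set of well-known members, with calls of the lists outside the rule; others completing a family or showing an array pattern, and the regional markers given as examples, were named after their values were seen. Alternatives changed the normalization, filter, floor, probe set choice, variance model, array weights, groups in the fit, replicate block and arrays.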

Additional observations from a re-analysis of the deposited data

Results flagged for a closer look

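In 9 of 85 groups of 4 arrays, over 23 Wnt genes, 1 array stood farther from the other 3 than Dixon's critical value allows. For independent groups of 4 normally distributed values, chance gives about 1 in 20. These genes share the same arrays, so their groups are not independent. The share of such groups over all tested probe sets was not counted. Whether the Wnt genes differ from other genes in this was therefore not tested. For csnk1g2b, which encodes a casein kinase, 1 array stood apart in this way in 3 groups: DMSO replicate 4 at 8.39 (others 8.17 to 8.20), RA replicate 4 at 8.29 (8.10 to 8.12) and replicate 3 of 10 µM antagonist at 8.61 (8.49 to 8.50). The Frizzled gene fzd10 had DMSO replicate 2 at 10.2 (9.93 to 9.95), and fzd9b had replicate 4 of 10 µM antagonist at 8.10 (7.53 to 7.62). Of the ligand genes, wnt10b had DMSO replicate 4 at 5.45 (5.04 to 5.09), wnt5b had replicate 4 of 1 µM antagonist at 8.15 (7.32 to 7.38), and wnt8b had replicate 1 of 10 µM antagonist at 4.45 (3.92 to 3.95). The Dishevelled gene dvl2 had RA replicate 2 as the lowest, at 7.76 (8.10 to 8.15).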

How the results depend on the processing

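Of the 9 Wnt calls between RA and DMSO, 8 held in every setting in which the gene was tested, and axin2 did not. A filter at log2 6 left dkk2 and wnt4 untested and gave 7 calls; quantile normalization added fzd7b (adjusted p = 0.0357). Of 11 calls between RA and 10 µM antagonist 7 held in every such setting. The antagonist comparisons with DMSO and between doses had 0 Wnt calls in limma under every setting. With the replicate block over all groups, the Wnt genes kept counts of 9 (RA against DMSO) and 11 (RA against 10 µM antagonist), and with the block and only RA and DMSO in the fit, chosen after seeing the data, the count was 8. The block ended the znf703 call at 10 µM antagonist, giving 0 calls in the response list, as did a fit of only those 2 groups (0). Array weights gave 1194 calls over all probe sets for RA against DMSO (681 without weights), 255 for 10 µM antagonist against DMSO (47), 1946 for RA against 10 µM antagonist (1048), and 2 calls in each list for 10 µM antagonist against DMSO. A fit of only the 2 groups gave 7 calls over all probe sets for 1 µM antagonist against DMSO (17). The cause was not tested. Leaving out 1 array at a time gave 7 to 9 Wnt genes for RA against 10 µM antagonist. In the pathway list it gave 2 to 3 calls for RA against DMSO and 4 to 7 for RA against 10 µM antagonist, and in the response list 0 to 0 for 10 µM antagonist against DMSO. Over all probe sets it gave 29 to 44 for 10 µM antagonist against DMSO (29 without DMSO replicate 1), 9 to 17 for 1 µM antagonist against DMSO and 1 to 3 between doses. Of the ligand genes 5 of 9 stayed below log2 4 on all arrays, where signal and background cannot be separated.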

Other observations

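Within the RA group, replicates 1 and 3 resembled each other (r = 0.992 across probe sets) and so did replicates 2 and 4 (r = 0.988), while the other pairs lay between 0.971 and 0.981; probe sets are not independent replicates. Several Wnt genes parted the same way, some higher and some lower in replicates 1 and 3. The likeness ran across all tested probe sets, the share of them that part so was not counted, and the genes given are examples. Dkk2 read 5.44 and 5.67 in replicates 1 and 3 and 6.61 and 7.27 in replicates 2 and 4, and fzd8b read 7.43 and 7.72 against 8.30 and 8.36. Csnk1a1 read 11.77 and 11.62 against 10.93 and 10.97.

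The ligand gene wnt5b and the kinase gene gsk3ba shared their extreme arrays. Both were lowest of their group in DMSO replicate 3 (6.35 and 4.49) and RA replicate 4 (6.33 and 5.0), and highest in replicate 4 of 1 µM antagonist (8.15 and 6.66). The same arrays were extreme in some genes of the other lists, among them vangl2, vent, scrib, gpc4 and cby1. Vangl2 read 5.35, 5.13 and 7.98 on those arrays in that order. The pattern is therefore not particular to wnt5b and gsk3ba, and its share over all tested probe sets was not counted.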
